A study of Mus musculus with 15 samples.

Results

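The signal recognition particle (SRP) and the Sec61 translocon route newly made proteins into the endoplasmic reticulum (ER), and 10 of their genes were followed through 15 brainstem RNA-seq libraries. The 10 genes are Srp9, Srp14, Srp19, Srp68 and Srp72 of the SRP, Sec61a1, Sec61b and Sec61g of the channel, and Ssr2 and Ssr4 of the translocon-associated protein complex. They were taken by symbol from the 57180 Ensembl gene identifiers of the count tables, and all 10 passed the filter on low counts in both experiments. The set was chosen with earlier results of these data known. By protein length in the GENCODE M21 annotation, 7 are small subunits of 68 to 183 residues (Sec61g, Srp9, Sec61b, Srp14, Srp19, Ssr4 and Ssr2) and 3 are large subunits of 476 to 671 residues (Sec61a1, Srp68 and Srp72).

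The study asked how the kinase AMPK and the transcription factor Lmx1b shape the brainstem centers that control breathing. The AMPK experiment holds 3 libraries of AMPK+/+ mice (WT) and 3 labelled AMPK-/- (AMPKα2-/- in the study, a deletion of the catalytic subunit gene Prkaa2), in a series whose title names neonatal mice. The Lmx1b experiment holds 3 libraries each of LMX1B+/+ (WT), LMX1B+/- (Lmx1b+/-) and LMX1B-/- (Lmx1b-/-) mice, collected before birth; the study describes the loss of both alleles as lethal to embryos. All mice were C57BL/6, WT animals were littermates, no treatment is named for these samples, and exact ages, sex and any pooling of animals are not given in the sources used here. Total counts lay between 291212 and 17384171 per library in the AMPK experiment and between 28833130 and 37441679 in the Lmx1b experiment. WT 2 (291212 counts) and the library labelled AMPKα2-/- 3 (335986 counts) were shallow: a count of 0 still allows 9.98 and 9.07 CPM in them, where CPM are counts scaled to the adjusted library total. Nothing in the labels says that the 3 libraries of a group came from separate animals, so p-values measure the spread between these samples, which may be technical.

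The targeted genes were read first. Lmx1b lay at 1.14 ± 0.30 CPM (SD, n = 3) in Lmx1b-/- and at 16.1 ± 6.39 CPM (SD, n = 3) in WT, a log2 change of −3.82 (edgeR quasi-likelihood adjusted p = 0.00287, SE 0.41). In Lmx1b+/- it was 18.9 ± 10.2 CPM (SD, n = 3), a mean above that of WT (log2 change 0.23, 95% interval −0.49 to 0.96, quasi-likelihood adjusted p = 0.618), so the counts do not show a lower Lmx1b level in the libraries labelled Lmx1b+/-. Prkaa2 was at 19.9 ± 6.95 CPM (SD, n = 3) in the libraries labelled AMPKα2-/- and at 26.1 ± 3.92 CPM (SD, n = 3) in WT, with overlapping ranges (exact permutation test, two-sided, p = 0.3, where 3 against 3 cannot go below 0.1). The Prkaa2 counts therefore do not bear out the AMPKα2-/- label. Counts over the whole gene cannot test a deletion whose exons are not known, so the label stays unchecked here. The study shows genotyping PCR of AMPKα2-/- and WT mice, without saying whether these libraries came from those mice. Both AMPKα2-/- and Lmx1b+/- are used below only as the labels of these libraries, also where a direction is given, and the deleted exons are not given in the sources used here.

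The SRP is a ribonucleoprotein that binds the signal sequence of a nascent secretory or membrane protein, slows translation and docks the ribosome at the ER. Srp9 and Srp14 form a heterodimer on the Alu domain of the SRP RNA, which slows elongation. Srp19 helps the RNA fold so that the signal-binding subunit Srp54 can join, and Srp68 and Srp72 form the heterodimer that braces the other end of the particle. Sec61a1 encodes the pore of the channel, while Sec61b and Sec61g encode its small single-span subunits, and Ssr2 and Ssr4 encode the beta and delta subunits of a complex that sits beside the channel and assists some signal sequences. In neurons this route serves receptors, ion channels, neuropeptides and adhesion molecules.

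The coding sequences of Sec61g and Sec61b are shown because these genes of the short channel subunits changed most in both comparisons with Lmx1b+/- and because both have near-identical copies elsewhere in the genome. They come from the GENCODE M21 annotation of GRCm38, and capitals mark the start and stop codons.
Sec61g: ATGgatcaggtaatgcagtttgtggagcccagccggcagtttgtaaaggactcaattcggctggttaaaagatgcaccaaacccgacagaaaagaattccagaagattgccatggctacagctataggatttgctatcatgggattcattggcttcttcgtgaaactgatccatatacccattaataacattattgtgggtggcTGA
Sec61b: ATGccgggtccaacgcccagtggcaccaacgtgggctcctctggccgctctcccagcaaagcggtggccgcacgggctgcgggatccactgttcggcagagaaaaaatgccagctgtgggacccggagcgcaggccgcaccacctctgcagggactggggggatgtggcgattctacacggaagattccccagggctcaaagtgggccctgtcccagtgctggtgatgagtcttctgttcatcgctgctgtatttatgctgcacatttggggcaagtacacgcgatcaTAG
At 90% identity or more over at least 80% of the coding sequence, 9 annotated copies of Sec61g, 3 of Sec61b, 1 of Srp9 and 1 of Srp19 were found, and none of the other 6 members. A further match to Sec61g lies inside a transcript of Zkscan1 and was not counted as a copy. Gm13736, a processed pseudogene, matched Srp9 at 100% over 253 of 261 bases and held 30.6% as many counts as Srp9 in the AMPK experiment and 27.1% in the Lmx1b experiment. The copies of Sec61b, counted as genes of their own, together held 16.6% and 18.5% as many counts as Sec61b, and those of Sec61g 10.2% and 10.1% as many as Sec61g. How reads with several matches were counted is not given in the sources used here, so the levels of Srp9, Sec61b and Sec61g are uncertain to that extent. Srp9, Ssr2 and Sec61a1 also overlap an annotated gene on the opposite strand, and whether the counting used strand is not stated.

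Promoter windows from RefSeq (GRCm38.p6), covering the bases 250 to 21 upstream of the transcript start, were read for 6 of the 10 members: Srp9, Srp14, Srp72, Sec61b, Sec61g and Ssr4. Shown are Srp14, which the study placed among genes with Lmx1b motifs near their start, the other small subunits with the largest changes, and Srp72 as a large subunit. Capitals mark any match, on either strand, to a searched motif.
Srp14 at chr2:118479717-118479946, minus strand: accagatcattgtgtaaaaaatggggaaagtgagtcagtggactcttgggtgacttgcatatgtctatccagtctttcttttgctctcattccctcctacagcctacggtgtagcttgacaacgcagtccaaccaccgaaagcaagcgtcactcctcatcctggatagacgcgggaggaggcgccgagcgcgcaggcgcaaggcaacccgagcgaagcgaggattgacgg
Sec61b at chr4:47474411-47474640, plus strand: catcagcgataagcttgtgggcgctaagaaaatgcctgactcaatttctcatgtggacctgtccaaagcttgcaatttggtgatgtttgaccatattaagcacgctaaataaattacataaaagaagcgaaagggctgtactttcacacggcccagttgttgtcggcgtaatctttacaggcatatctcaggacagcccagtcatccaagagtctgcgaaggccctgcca
Sec61g at chr11:16508505-16508734, minus strand: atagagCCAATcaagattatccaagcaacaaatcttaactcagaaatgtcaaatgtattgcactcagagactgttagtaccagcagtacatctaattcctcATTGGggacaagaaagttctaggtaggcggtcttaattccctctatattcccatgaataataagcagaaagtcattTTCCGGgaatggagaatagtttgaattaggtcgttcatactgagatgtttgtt
Srp72 at chr5:76974451-76974680, plus strand: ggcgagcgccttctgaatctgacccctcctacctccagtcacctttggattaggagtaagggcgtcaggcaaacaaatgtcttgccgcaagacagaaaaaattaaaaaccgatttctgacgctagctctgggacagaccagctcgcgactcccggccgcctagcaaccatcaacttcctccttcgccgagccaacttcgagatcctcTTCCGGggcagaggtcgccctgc
The LIM-homeodomain core TAATTA was in 0 of the 6 windows and in 4.67% of 32851 RefSeq promoters cut to the same length. The ETS core CCGGAA was in 3 of 6 (Sec61g, Srp72 and Ssr4), against 10.3% of all promoters, though the RefSeq start of Ssr4 matched no GENCODE transcript start. CCAAT was in the window of Sec61g alone (32.2% of all), and the Sp core GGGCGG in that of Srp9 alone (29.8% of all). The E-box CACGTG was in none, nor was the TATA box with the letters TATAAA, the NRF1-like motif GCATGCGC or the ER stress response element, which is CCAAT and CCACG with 9 bases between. The absence of TAATTA says only that these letters are not in this window, which is narrower than the one the study searched.

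In the libraries labelled Lmx1b+/-, against WT, all 7 small subunits rose, Srp72 rose slightly, Srp68 did not pass the test and Sec61a1, the pore itself, fell. The rises ran from 1.43-fold for Ssr2 to 2.98-fold for Sec61g. In total 8 of the 10 members were called higher (quasi-likelihood adjusted p under 0.05), beside 19.4% of the 21729 genes tested, and 1 was called lower, beside 17.3%. The CPM of WT and Lmx1b+/- did not overlap for 8 members, beside 45.3% of all genes tested. Genes that encode proteins under 250 residues are the closer comparison for the small subunits: 42.5% of 2965 such genes were called higher and 6.31% lower in Lmx1b+/-, against 11.6% and 26.5% of 12348 genes with longer proteins. In bulk tissue, fewer cells of a type and less RNA per cell cannot be told apart.

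**Figure D1:**
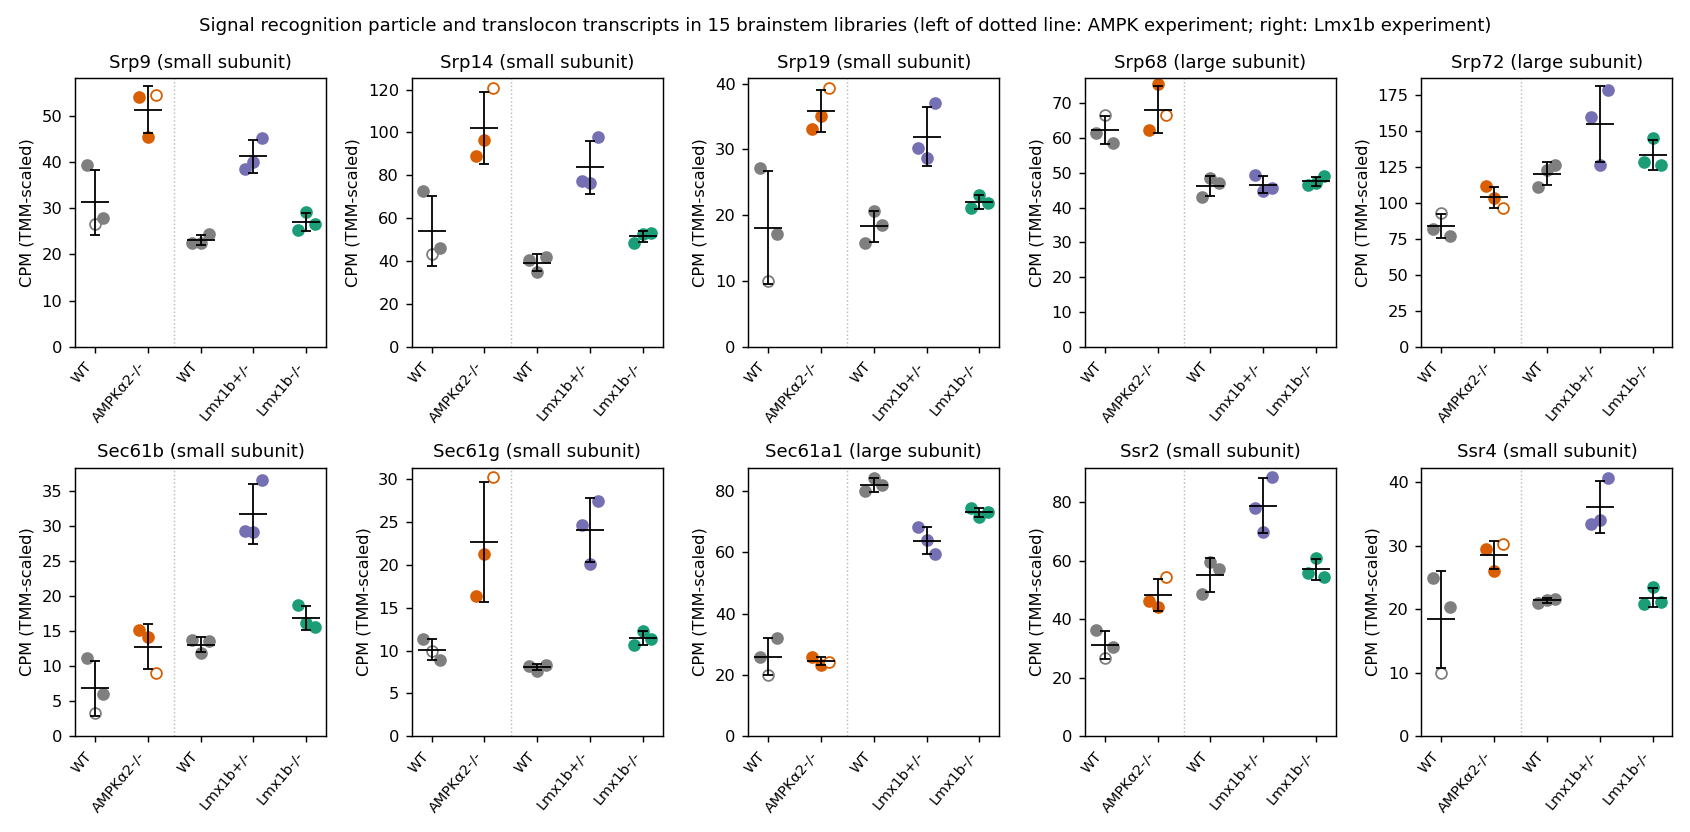
Level of each member in each of the 15 libraries, in CPM scaled by TMM, with 1 panel per gene; points are libraries, open points the 2 shallow ones, and bars the mean and SD of 3 libraries. In the Lmx1b experiment every Lmx1b+/- library lies above every WT library for the 7 small subunits, while Sec61a1 is below WT and Srp68 lies between 43.0 and 49.3 CPM throughout.

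Among the Alu-domain subunits, Srp14 was at 40.7, 34.9 and 42.1 CPM in WT 1 to 3, at 77.2, 76.3 and 98.0 CPM in Lmx1b+/- and at 48.6, 52.8 and 53.1 CPM in Lmx1b-/-. The 3 genotypes did not overlap, with Lmx1b+/- the highest and Lmx1b-/- between. Srp14 was 2.13-fold higher in Lmx1b+/- than in WT (log2 change 1.09 with SE 0.12, quasi-likelihood adjusted p = 1.85e-05). The study names Srp14 in its Lmx1b interactome, and the rise is given here as a description of these libraries. Its partner Srp9 was at 22.5, 22.4 and 24.4 CPM in WT, at 38.5, 39.9 and 45.2 CPM in Lmx1b+/- and at 25.3, 29.2 and 26.6 CPM in Lmx1b-/-. It followed the same order, with Lmx1b-/- just above WT, and was 1.78-fold higher in Lmx1b+/- (log2 change 0.83 with SE 0.10, quasi-likelihood adjusted p = 5.61e-05). The ratio of Srp9 to Srp14 counts, not corrected for length, was 0.592 ± 0.045 (SD, n = 3) in WT, 0.495 ± 0.031 (SD, n = 3) in Lmx1b+/- and 0.524 ± 0.026 (SD, n = 3) in Lmx1b-/-. It rests on an uncertain Srp9 level, since the copy Gm13736 held 27.1% as many counts in this experiment. The 95% intervals of the log2 changes overlapped, at 0.61 to 1.05 for Srp9 and 0.85 to 1.34 for Srp14. Whether the dimer partners rose in equal measure was not tested.

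Srp19, which readies the SRP RNA for Srp54, was at 15.8, 20.6 and 18.6 CPM in WT, at 30.2, 28.6 and 37.0 CPM in Lmx1b+/- and at 21.1, 23.1 and 21.8 CPM in Lmx1b-/-. All 3 Lmx1b+/- libraries were above the other 6, and the rise over WT was 1.74-fold (log2 change 0.80 with SE 0.13, quasi-likelihood adjusted p = 0.000365). Of the large S-domain pair, Srp68 was at 43.0, 48.4 and 47.1 CPM in WT, at 49.3, 44.9 and 45.7 CPM in Lmx1b+/- and at 46.4, 47.2 and 49.0 CPM in Lmx1b-/-. These values interleave, and the log2 fold change of Lmx1b+/- over WT was 0.01, with a 95% interval from −0.18 to 0.20 (quasi-likelihood adjusted p = 0.922). Scaling by library size alone turned this value to −0.23.

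Srp72, the partner of Srp68, was the most abundant member in CPM in the Lmx1b experiment, at 111, 123 and 127 CPM in WT, at 159.7, 127 and 179 CPM in Lmx1b+/- and at 128, 145 and 126 CPM in Lmx1b-/-. One Lmx1b+/- library lay at the top of the WT range while the others were well above it. Its rise of 1.29-fold (log2 change 0.37 with SE 0.12, quasi-likelihood adjusted p = 0.0336) was not called without WT 1, WT 2, Lmx1b+/- 1 or Lmx1b+/- 3, where the adjusted p reached 0.141, nor with library size scaling alone (log2 fold change 0.11). The count ratio of Srp72 to Srp68 was 2.61 ± 0.07 (SD, n = 3) in WT and 3.32 ± 0.55 (SD, n = 3) in Lmx1b+/-, and the 3 Lmx1b+/- ratios began at 2.82, above the highest WT ratio of 2.69.

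The channel subunits moved apart. Sec61g was at 8.23, 7.65 and 8.36 CPM in WT, at 24.6, 20.1 and 27.5 CPM in Lmx1b+/- and at 10.7, 12.3 and 11.3 CPM in Lmx1b-/-. It showed the largest change of the 10 members in this comparison, 2.98-fold higher in Lmx1b+/- (log2 change 1.57 with SE 0.13, quasi-likelihood adjusted p = 4.71e-06). Sec61b was at 13.7, 11.8 and 13.6 CPM in WT, at 29.3, 29.1 and 36.6 CPM in Lmx1b+/- and at 18.7, 16.2 and 15.6 CPM in Lmx1b-/-. Again Lmx1b+/- stood apart from both other genotypes, at 2.43-fold the WT level (log2 change 1.28 with SE 0.13, quasi-likelihood adjusted p = 1.24e-05). Sec61a1 was at 79.8, 84.3 and 81.9 CPM in WT, at 68.2, 64.0 and 59.3 CPM in Lmx1b+/- and at 74.4, 71.5 and 73.2 CPM in Lmx1b-/-. Here the order was turned round, with every Lmx1b+/- library below every WT library (log2 change −0.36 with SE 0.08, quasi-likelihood adjusted p = 0.00476). Once the trend of the libraries with gene length was removed, the fall of Sec61a1 was −0.17 on the log2 scale and was not called (quasi-likelihood adjusted p = 0.16).

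The 3 channel proteins act as a heterotrimer, so their ratios were read too. For each count of Sec61a1 there were 0.0986 ± 0.0068 counts of Sec61g in WT (SD, n = 3), 0.380 ± 0.077 in Lmx1b+/- (SD, n = 3) and 0.157 ± 0.014 in Lmx1b-/- (SD, n = 3). For Sec61b over Sec61a1 the ratios were 0.159 ± 0.017, 0.501 ± 0.102 and 0.230 ± 0.020 (SD, n = 3 each). Neither ratio overlapped between genotypes, whereas Sec61g over Sec61b, a ratio of small subunits, went only from 0.621 ± 0.023 (SD, n = 3) in WT to 0.760 ± 0.076 (SD, n = 3) in Lmx1b+/-.

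Of the translocon-associated subunits, Ssr4 was at 21, 21.5 and 21.7 CPM in WT, at 33.5, 34.1 and 40.8 CPM in Lmx1b+/- and at 20.8, 23.5 and 21.2 CPM in Lmx1b-/-. Lmx1b-/- and WT interleaved and Lmx1b+/- lay above both, 1.69-fold over WT (log2 change 0.76 with SE 0.11, quasi-likelihood adjusted p = 0.000151). Ssr2 was at 48.6, 59.5 and 57.1 CPM in WT, at 78.0, 70.0 and 88.7 CPM in Lmx1b+/- and at 55.8, 61.0 and 54.4 CPM in Lmx1b-/-. Its rise of 1.43-fold was the lowest among the small subunits (log2 change 0.52 with SE 0.11, quasi-likelihood adjusted p = 0.00265). Scaling by library size alone took it to 0.27 and ended its call (quasi-likelihood adjusted p = 0.193).

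Between Lmx1b-/- and WT, 0 of the 10 members were called in either direction, beside 0% of genes called higher and 0.0184% called lower. At an unadjusted p under 0.05 there were 4 members, beside 1757 of the 21729 genes tested. They were Srp9, Srp14, Sec61b and Sec61g, all small and all higher in Lmx1b-/-. DESeq2 also called 0 members. The CPM ranges did not overlap for 6 members, beside 18.0% of genes tested. Sec61g had the largest log2 fold change, 0.50 with a 95% interval from 0.21 to 0.79, then Srp14 with 0.39 (0.14 to 0.64), Sec61b with 0.37 (0.09 to 0.64) and Srp9 with 0.22 (0.00 to 0.44). For Ssr2 and Ssr4 the values were 0.05 (−0.19 to 0.29) and 0.03 (−0.20 to 0.26), and for Sec61a1 −0.17 (−0.35 to 0.01). None of these 7 values passed the test after adjustment.

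The direct comparison of Lmx1b-/- with the libraries labelled Lmx1b+/- had the 7 small subunits lower and no large subunit called. The 7 calls stand beside 14.0% of all genes called lower and 11.5% called higher, with 0 members higher, and 8 members did not overlap, beside 42.4%. Among genes with proteins under 250 residues, 34.1% were lower and 4.35% higher. Sec61g was 2.10-fold lower (log2 change −1.07 with SE 0.13, quasi-likelihood adjusted p = 0.000119) and Sec61b 1.88-fold lower (−0.91 with SE 0.13, quasi-likelihood adjusted p = 0.000257). Ssr4 was next (−0.73), followed by Srp14 (−0.70), Srp9 (−0.61), Srp19 (−0.54) and Ssr2 (−0.47, quasi-likelihood adjusted p = 0.0075). Sec61a1 was higher by 0.19 on the log2 scale without passing the test (quasi-likelihood adjusted p = 0.113), Srp68 differed by 0.03 (−0.16 to 0.22) and Srp72 by −0.22 (−0.48 to 0.05). With library size scaling alone or limma on log2 RPKM, the calls of Srp9, Srp19 and Ssr2 were lost and those of Srp14, Sec61b, Sec61g and Ssr4 remained. Removing the length trend ended the call of Ssr2 only (quasi-likelihood adjusted p = 0.0529). The comparisons of Lmx1b+/- with WT and with Lmx1b-/- share the Lmx1b+/- libraries, and both comparisons with WT share the WT libraries, so they are not independent of each other.

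**Figure D2:**
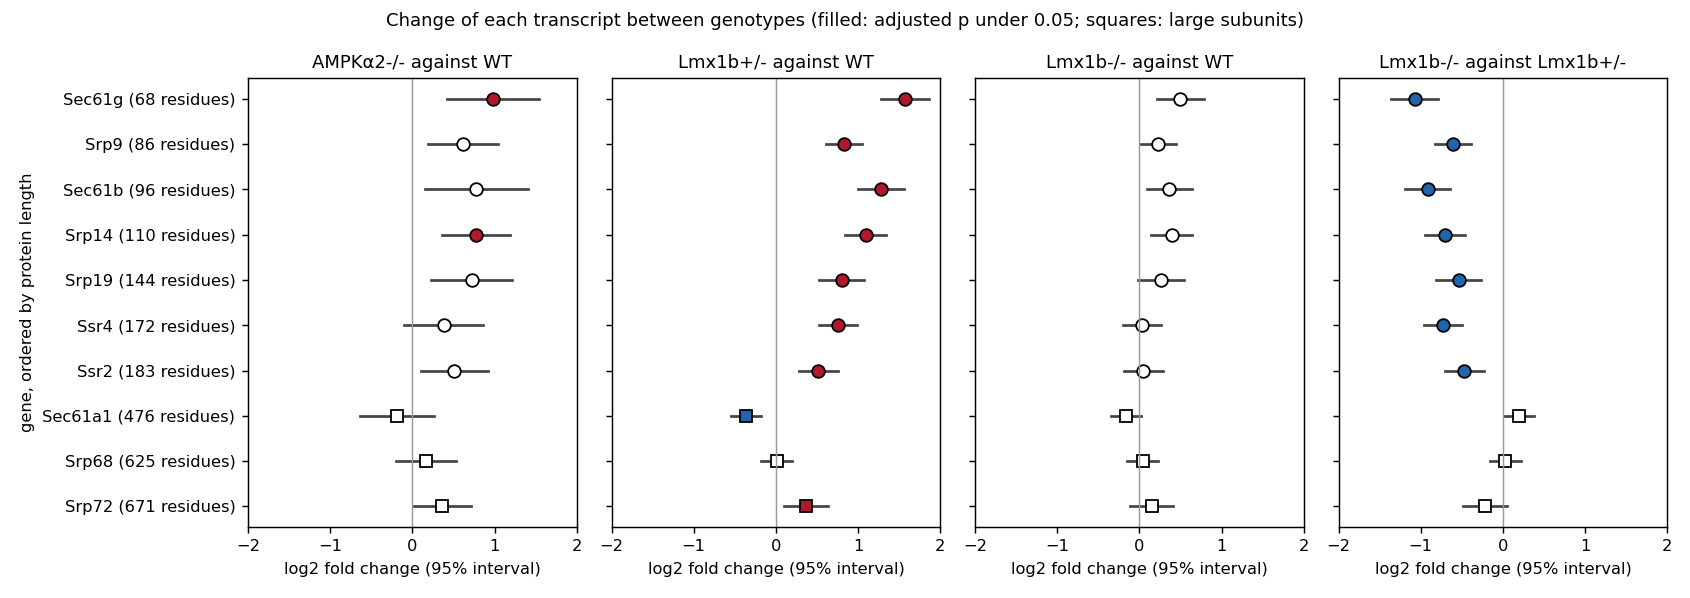
Log2 fold change of each member with its 95% interval (horizontal axis) in the 4 comparisons, with genes ordered by protein length from the shortest at the top; filled symbols passed the quasi-likelihood test at an adjusted p under 0.05, red higher and blue lower, and squares are large subunits. In Lmx1b+/- against WT the values run from 1.57 for Sec61g down to −0.36 for Sec61a1, and in Lmx1b-/- against WT no symbol is filled.

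In the AMPK experiment, 2 small subunits, Srp14 and Sec61g, were called higher in the libraries labelled AMPKα2-/- than in WT, beside 3.77% of 17397 genes called higher, and 0 members were called lower, beside 5.17%. In all, 7 members had an unadjusted p under 0.05, beside 4272 of the 17397 genes tested. The groups did not overlap for 7 members, beside 26.6% of genes tested. Of 2671 genes with proteins under 250 residues, 11.4% were called higher and 0.711% lower, against 1.64% and 7.44% of 11284 genes with longer proteins. The shallow WT 2 held 1 to 28 counts of each member and the shallow library labelled AMPKα2-/- 3 held 3 to 40, so their CPM carry a wide counting error.

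Srp14 read 72.8, 43.3 and 46.3 CPM (WT 1 to 3) against 88.9, 96.6 and 121 CPM (labelled AMPKα2-/-), 1.71-fold, log2 change 0.78 with SE 0.20, quasi-likelihood adjusted p = 0.0183. Sec61g read 11.4, 9.98 and 8.93 CPM (WT) against 16.4, 21.3 and 30.2 CPM (labelled AMPKα2-/-), 1.98-fold, log2 change 0.98 with SE 0.27, quasi-likelihood adjusted p = 0.025. Both sets of values are apart, and in both genes the highest library was the shallow one, with 40 counts of Srp14 and 10 of Sec61g. Neither gene was called without WT 3, without the library labelled AMPKα2-/- 3, without both shallow libraries or by limma on log2 RPKM. The call of Srp14 was also lost without WT 2 (quasi-likelihood adjusted p = 0.0562) and with the length trend removed (0.151), and that of Sec61g without the library labelled AMPKα2-/- 2 (0.102), with library size scaling alone (0.0591) and by DESeq2 (adjusted p = 0.081). Without WT 1, the WT library with the highest level of all 7 small subunits, 6 members were called: Srp9, Srp14, Srp19, Sec61b, Sec61g and Ssr2. They stand beside 1446 of 17992 genes called higher and 1512 called lower in that fit, against 655 and 900 of 17397 with all libraries.

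Srp9 read 39.4, 26.6 and 27.9 CPM (WT) against 53.9, 45.3 and 54.4 CPM (labelled AMPKα2-/-), log2 fold change 0.61, quasi-likelihood adjusted p = 0.0623. Srp19 read 27.1, 9.98 and 17.2 CPM (WT) against 33.1, 35.0 and 39.3 CPM (labelled AMPKα2-/-), 0.72, quasi-likelihood adjusted p = 0.0594. Neither passed the test, although both sets of libraries are apart. Sec61b read 11.1, 3.33 and 6.01 CPM (WT, the second from 1 count) against 15.1, 14.1 and 9.07 CPM (labelled AMPKα2-/-), with overlap (0.77, quasi-likelihood adjusted p = 0.111). Ssr2 read 36.4, 26.6 and 30.5 CPM (WT) against 46.2, 44.3 and 54.4 CPM (labelled AMPKα2-/-), 0.51, quasi-likelihood adjusted p = 0.109. Ssr4 read 24.9, 9.98 and 20.4 CPM (WT) against 29.5, 26.0 and 30.2 CPM (labelled AMPKα2-/-), 0.38, quasi-likelihood adjusted p = 0.323. All 7 small subunits thus had positive values, of which 2 passed the test. Over the 2671 tested genes with proteins under 250 residues the median log2 fold change was also positive, at 0.31.

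The large subunits in the AMPK experiment gave values nearer to 0. Srp72 read 82.0, 93.2 and 77.3 CPM (WT) against 112, 103 and 96.7 CPM (labelled AMPKα2-/-), 0.36, 95% interval 0.02 to 0.71, quasi-likelihood adjusted p = 0.182. Srp68 read 61.4, 66.6 and 58.6 CPM (WT) against 62.3, 75.5 and 66.5 CPM (labelled AMPKα2-/-), 0.17, −0.20 to 0.54. Sec61a1 read 25.8, 20.0 and 32.2 CPM (WT) against 25.8, 23.4 and 24.2 CPM (labelled AMPKα2-/-), −0.19, −0.64 to 0.26. None of the 3 passed the test, and the intervals leave room for rises of the size seen in some small subunits for Srp68 and Srp72.

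The contrast of small with large subunits was put on 1 scale as the mean log2 CPM of the 7 small members minus that of the 3 large members in each library, given here as a description with no test. In the Lmx1b experiment it was −1.84 ± 0.06 (SD, n = 3) in WT, −0.87 ± 0.16 (SD, n = 3) in Lmx1b+/- and −1.59 ± 0.03 (SD, n = 3) in Lmx1b-/-. Lmx1b+/- and WT differed by 0.97. The mean log2 CPM of the small members went from 4.42 ± 0.05 in WT to 5.39 ± 0.17 in Lmx1b+/- (SD, n = 3 each). That of the large members was 6.27 ± 0.07 and 6.27 ± 0.10 (SD, n = 3 each). This mean joins log2 changes in opposite directions, 0.37 for Srp72 and −0.36 for Sec61a1, with 0.01 for Srp68. It also rests on TMM scaling, since library size scaling alone lowered the values of Srp68 and Srp72. In the AMPK experiment the balance was −0.93, −1.82 and −1.50 in WT 1 to 3 and −0.72, −0.73 and −0.49 in the libraries labelled AMPKα2-/-. Those sets do not overlap, but WT 1 lay close to the libraries labelled AMPKα2-/-, and the shallow WT 2 was the lowest.

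**Figure D3:**
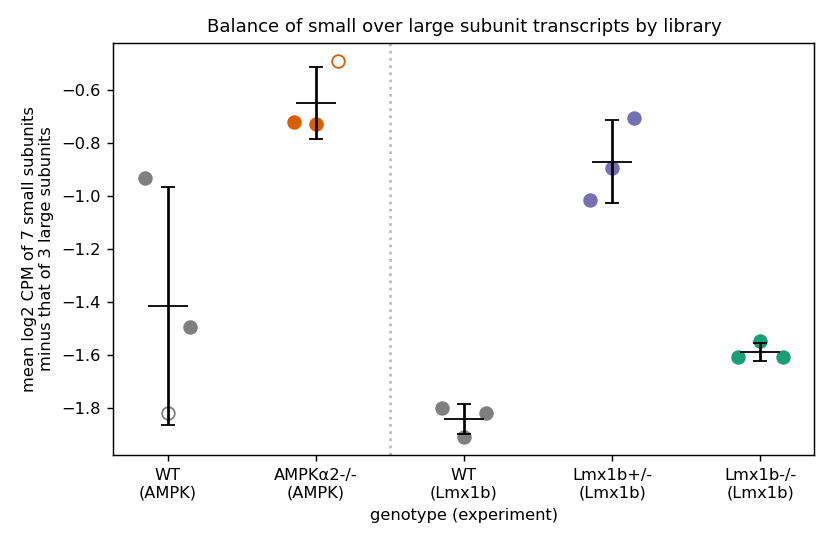
Mean log2 CPM of the 7 small subunits minus that of the 3 large subunits (vertical axis) in each library, by genotype and experiment; points are libraries, open points the 2 shallow ones, and bars the mean and SD of 3 libraries. Lmx1b+/- lies between −1.02 and −0.71, apart from WT and Lmx1b-/-, whose values lie between −1.91 and −1.55.

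The same direction was seen over all genes sorted by length. In the libraries labelled Lmx1b+/-, against WT, the median log2 fold change was 0.82 in the shortest twentieth of the tested genes, whose median gene length was 348 bases, and −0.37 in the longest, whose median was 13968 bases. Genes with proteins under 250 residues had a median of 0.34 and the 7 small members a median of 0.83, and for genes with longer proteins and the 3 large members the medians were −0.17 and 0.01. The gene length that the tables imply is 5541 bases for Srp9 and 2737 bases for Srp68, and the part of length in the members' values was not tested beyond the alternative that follows. With the length trend removed from each library, all 7 small subunits were still called higher in Lmx1b+/-, at log2 fold changes between 0.35 for Ssr2 and 1.50 for Sec61g. In that fit 3571 of the 21729 genes tested were called higher and 2698 lower. The fit used gene length, and the share among genes with proteins under 250 residues was not counted in it. For the libraries labelled AMPKα2-/-, against WT, the median was 0.61 in the shortest twentieth and −0.29 in the longest. The median gene lengths there were 381 and 14802.5 bases.

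**Figure D4:**
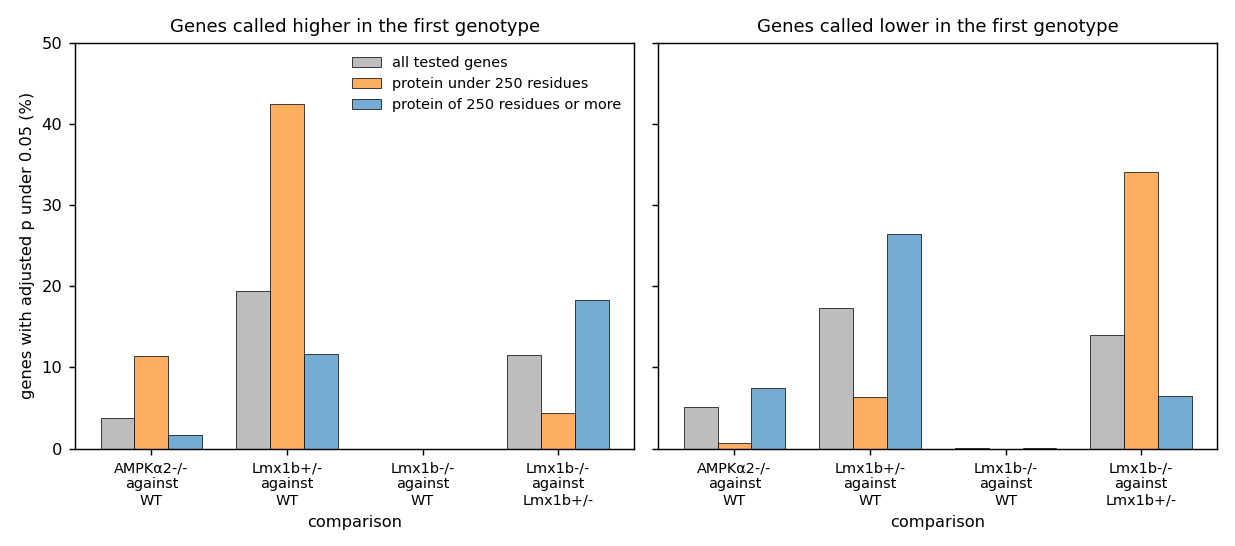
Percent of tested genes called higher (left) or lower (right) at a quasi-likelihood adjusted p under 0.05 in each comparison, for all genes and for genes encoding proteins under and at or above 250 residues. In Lmx1b+/- against WT, 42.5% of genes with short proteins are higher against 11.6% of those with longer proteins.

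Scaling and library features moved with these results. With library size scaling alone, the median log2 fold change of all genes shifted from −0.03 to −0.27 in Lmx1b+/- against WT, from 0.02 to 0.22 in Lmx1b-/- against Lmx1b+/- and from −0.01 to −0.18 in the AMPK comparison. The share of called genes that were higher went from 53.0% to 26.1%, from 45.1% to 74.3% and from 42.1% to 14.2%, respectively. The small subunits kept positive values in Lmx1b+/- against WT under that scaling, and 6 of the 7 were called. That scaling called 2054 of the 21729 genes tested higher and 5816 lower. Mitochondrially encoded genes took 5.57% to 6.74% of counts in WT, 9.58% to 14.7% in Lmx1b+/- and 7.23% to 7.98% in Lmx1b-/-. The mean CPM of the small subunits had the same order, though the WT and Lmx1b-/- libraries of Ssr2 and Ssr4 interleaved. In the AMPK experiment mitochondrially encoded genes took 10.4% to 13.9% in WT against 20.0% to 21.7% in the libraries labelled AMPKα2-/-. Of 8 erythroid markers, 8 were higher in Lmx1b+/- than in WT and 8 were lower in Lmx1b-/- than in Lmx1b+/-, and their summed level was 509.9 to 1251 CPM in WT, 3551 to 7518 CPM in Lmx1b+/- and 1061 to 2383 CPM in Lmx1b-/-, with none at 0. In the AMPK experiment 5 of 5 tested skeletal muscle markers were lower in the libraries labelled AMPKα2-/-, with sums of 9.98 to 942 CPM in WT and 6.01 to 9.98 CPM there. Of 5 erythroid markers tested in that experiment, 2 were higher and 0 lower in the libraries labelled AMPKα2-/-. Their sums were 299 to 485 CPM there, against 246 to 325 in WT. The 7 neuron markers and 8 hindbrain markers, which stand for the tissue itself, were detected in all 5 groups and moved too. Of the hindbrain markers, 4 of 8 were higher in Lmx1b+/- than in WT and 0 lower (median log2 change 0.78, summed levels 80.6 to 178 CPM in WT, 144 to 286 in Lmx1b+/- and 121 to 155 in Lmx1b-/-), and 1 was lower in Lmx1b-/- than in Lmx1b+/-. In the AMPK experiment 0 of the 8 hindbrain markers were called higher and 0 lower (median log2 change −0.35). Their sums were 34.8 to 91.1 CPM in the libraries labelled AMPKα2-/-, against 71.3 to 123 in WT. Of the neuron markers, 4 of 7 were higher and 1 lower in the libraries labelled AMPKα2-/- (median log2 change 0.58, summed levels 3857 to 3956 CPM against 3066 to 3451 in WT), and 1 was higher and 2 lower in Lmx1b+/- than in WT. Skeletal muscle markers were higher in Lmx1b+/- than in WT in 3 of 9 cases and lower in Lmx1b-/- than in Lmx1b+/- in 4 of 9, at sums of at most 25.7 CPM. Of 10 choroid plexus markers, 1 was higher and 1 lower in Lmx1b+/- than in WT. Their sums were 254 to 407 CPM in WT, 99.9 to 1758 in Lmx1b+/- and 134 to 1380 in Lmx1b-/-. In the AMPK experiment 1 of 6 tested was higher in the libraries labelled AMPKα2-/-. Sums there were 53.0 to 145 CPM, against 27.3 to 36.6 in WT. Of 6 meninges and fibroblast markers, 2 were lower in Lmx1b+/- than in WT, and 1 was higher in the libraries labelled AMPKα2-/-. The part of these features in the members' values was not tested. All marker counts stand beside the shares of all tested genes called higher and lower. These were 3.77% and 5.17% in the AMPK comparison, 19.4% and 17.3% in Lmx1b+/- against WT, and 11.5% and 14.0% in Lmx1b-/- against Lmx1b+/-. WT 3 of the Lmx1b experiment had 4.56% of its counts on the most abundant gene, ENSMUSG00000119584, against 13.7% to 22.7% in the other 8 libraries. Without WT 3, 9 members were still called in Lmx1b+/- against WT, 8 higher and 1 lower. All genes tested in that fit numbered 22134, with 3763 called higher and 3033 lower.

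Compared per kilobase of the gene length that the tables imply, the WT levels of the Lmx1b experiment ran in the order Srp14 (32.8 ± 3.21 CPM per kb), Ssr2 (29.6 ± 3.09), Srp72 (21 ± 1.40), Srp68 (16.9 ± 1.03), Sec61a1 (12.2 ± 0.33), Sec61b (10.3 ± 0.82), Ssr4 (6.91 ± 0.11), Srp19 (5.05 ± 0.66), Srp9 (4.17 ± 0.20) and Sec61g (3.28 ± 0.15), with SD and n = 3 for each. The libraries of Srp14 and Ssr2 overlapped, as did those of Srp19 and Srp9, and the other neighbours in this order were apart. In Lmx1b+/- Sec61b, at 24.9 ± 3.35 CPM per kb (SD, n = 3), stood within 1 SD of Srp72 at 27.1 ± 4.61 (SD, n = 3), and Sec61g, at 9.77 ± 1.52 (SD, n = 3), was within 1 SD of the pore subunit Sec61a1 at 9.48 ± 0.66 (SD, n = 3). Sec61a1 was at 3.86 ± 0.91 CPM per kb in WT of the AMPK experiment (SD, n = 3), against 12.2 in WT of the Lmx1b experiment. Age, experiment and depth differ together between the experiments and cannot be told apart.

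Over the 9 Lmx1b libraries, the non-members whose log2 CPM ran most like that of Srp14 were Gm5611 (Pearson r = 0.996), Pdcl3 (0.996), Mpc1 (0.995), Fam92a (0.995) and Vdac3-ps1 (0.995). Of the members, Sec61g (0.985), Srp9 (0.982) and Sec61b (0.976) were closest to it, Srp72 was at 0.794, Srp68 at −0.02 and Sec61a1 at −0.98. These are descriptions over libraries of 3 genotypes that share scaling and composition.

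Other genes at the entrance of the secretory pathway were counted in the same way, by lists written from textbook knowledge with earlier results of these data known. Each count for Lmx1b+/- against WT stands beside 19.4% of all tested genes called higher and 17.3% lower. Among genes with proteins under 250 residues 42.5% were higher, and among those with longer proteins 11.6%. Counts such as 2 of 7 or 6 of 18 lie between 19.4% and 42.5% and are not read as a result about a list. The lists were not split by protein length. Of the rest of the targeting and translocation machinery, 8 of 15 tested genes were higher in Lmx1b+/- than in WT and 0 lower (median log2 fold change 0.36, beside −0.03 over all tested genes). The smallest adjusted p belonged to Serp2 (log2 fold change 0.74), which stabilizes membrane proteins at the translocon, and to Srp54b (0.67), Srp54c (0.57) and Srp54a (0.60), near-identical copies of the signal-binding subunit whose reads the counting could have split. All 5 signal peptidase subunits, which trim the signal sequence, were higher, with Spcs1 (1.14), Sec11a (0.65), Spcs2 (0.63) and Sec11c (0.63) at the smallest adjusted p. Of 11 oligosaccharyltransferase genes, which attach N-glycans, 6 were higher and 0 lower, with Tmem258 (1.17), Ostc (0.96), Dad1 (0.87) and Krtcap2 (0.66) at the smallest adjusted p.

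The lists outside the main channel were mixed. In the ER membrane protein complex, an insertase, 5 of 10 genes were higher and 1 lower: Emc6 (0.60), Emc4 (0.72) and Emc2 (0.80) rose, and Emc1 (−0.48), its largest lumenal subunit, fell. For the partners of the multipass translocon, 3 of 7 were higher and 2 lower, with Tmem147 (0.74), Tmco1 (0.96) and Rab5if (0.57) up and Nomo1 (−0.54) and Ncln (−0.58) down. The tail-anchored protein pathway had 2 of 7 higher, Get3 (0.58) and Camlg (0.39), and 0 lower. Of 18 ER chaperone and stress genes, 6 were higher and 1 lower, with Manf (0.60), Pdia6 (0.65), Hsp90b1 (0.60) and Pdia3 (0.44) at the smallest adjusted p, and the gene that was lower was Hyou1 (−0.35).

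In Lmx1b-/- against Lmx1b+/-, 14.0% of all tested genes were lower and 11.5% higher. Among genes with proteins under 250 residues 34.1% were lower, and among those with longer proteins 6.49%. Counts such as 3 of 18 or 2 of 7 lower lie between 14.0% and 34.1% and are not read as a result about a list. Lmx1b-/- had 6 of 15 genes of the remaining machinery lower and 0 higher, with Serp2 (−0.62), Srp54c (−0.40), Srp54b (−0.40) and Srp54a (−0.39) at the smallest adjusted p. Signal peptidase genes were lower in 4 of 5 cases, Spcs1 (−0.74), Spcs2 (−0.48), Sec11a (−0.48) and Sec11c (−0.45). Oligosaccharyltransferase genes were lower in 5 of 11, among them Tmem258 (−1.01), Krtcap2 (−0.77), Dad1 (−0.82) and Ostc (−0.71). For the ER membrane protein complex 3 of 10 were lower, Emc6 (−0.69), Emc4 (−0.56) and Emc2 (−0.51), and 1 was higher, Emc1 (0.49). The multipass partners had 3 of 7 lower, Tmem147 (−0.68), Tmco1 (−0.64) and Rab5if (−0.51), and 2 higher, Nomo1 (0.50) and Ncln (0.49). Get3 (−0.51) and Camlg (−0.35) were the 2 of 7 tail-anchored pathway genes that were lower, and of the ER chaperones 3 of 18, Manf (−0.50), Dnajb9 (−0.38) and Pdia6 (−0.36), were lower and 1, Hyou1 (0.44), higher. In Lmx1b-/- against WT, 0 genes of the 7 lists were called, where edgeR called 4 genes of 21729 and 1757 had an unadjusted p under 0.05.

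In the AMPK comparison single genes of these lists passed the test: Sec62 (log2 fold change 0.62), Spcs1 (0.70), Ostc (0.88), Emc9 (0.81) and Tmco1 (0.80) were higher in the libraries labelled AMPKα2-/-, as were the ER stress factor Xbp1 (0.66) and the chaperones Hsp90b1 (0.55) and Pdia3 (0.56), and Bag6 (−0.82), a chaperone of tail-anchored proteins, was lower. The list counts were 1 of 15, 1 of 5, 1 of 11, 1 of 10, 1 of 7, 3 of 18 higher and 1 of 7 lower, in that order, beside 3.77% of all tested genes higher and 5.17% lower, and beside 11.4% higher among genes with proteins under 250 residues. The list genes were not followed through the alternative settings. Without both shallow libraries, 3 genes were called higher and 3 lower among all 18088 tested, and limma on log2 RPKM called 0.

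**Figure D5:**
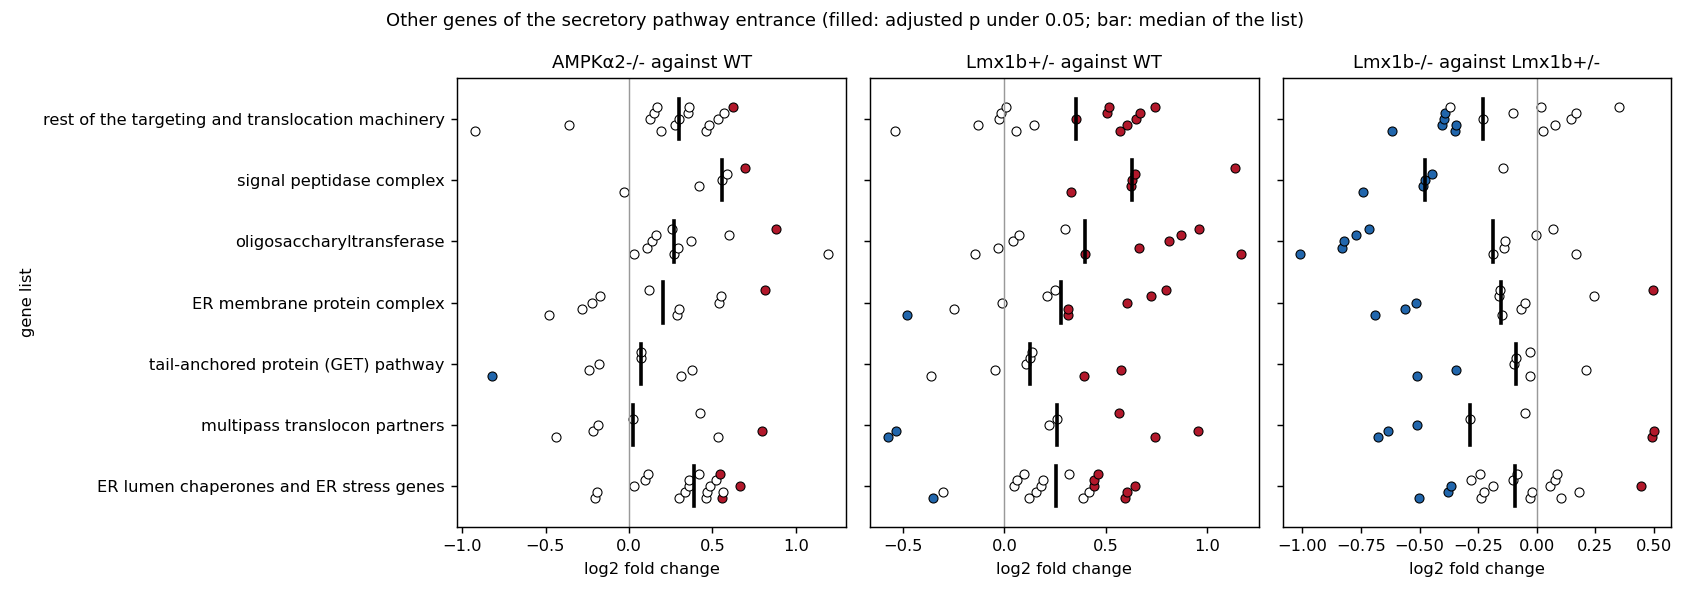
Log2 fold change (horizontal axis) of each tested gene of the 7 lists in 3 comparisons; points are genes, filled where the quasi-likelihood adjusted p was under 0.05 (red higher, blue lower), and the bar is the median of the list. In Lmx1b+/- against WT all 5 signal peptidase genes are filled, with a median of 0.63.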

How the data were processed

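Brainstem polyA RNA was read by RNA-seq with a directional kit on an Illumina instrument. The authors deposited counts per gene, whole numbers without normalization, and RPKM per gene, which the values show to be those counts over gene length and library total. The submitters' processing notes name HISAT2 and GRCm39; the counting method, annotation, multiple matches and strand are not given in the sources used here. Because the reference held here is GRCm38, coordinates are given only for RefSeq promoters. Columns were matched to samples by genotype and number, and the AMPK column read as WT 3 has a suffix.

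Of 57180 identifiers, 51884 (90.7%) had a symbol. The tests ran in edgeR 4.0.16 (R 4.3.3): filterByExpr, TMM scaling, quasi-likelihood F-test with genotype as the only term, in 1 fit of 6 AMPK and 1 of 9 Lmx1b libraries, with p-values adjusted by Benjamini-Hochberg over every tested gene. CPM are counts over the TMM-scaled total; log2 CPM used a prior count of 2. The level a count of 0 allows is 3 counts and covers counting error only; the 95% intervals of fold changes come from the fit and include the spread between libraries. Alternatives used limma 3.58.1 on log2 RPKM (pseudocounts 1 and 0.1), DESeq2 1.42.0, other scalings and filters, and left-out libraries; code was tested on simulated data.

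The members and lists were chosen with earlier results of these data known. Named were all 10 members, up to 4 called genes of each list with the smallest adjusted p, and the 5 genes most like Srp14; Hyou1, Rab5if and Ncln were added where few genes were called, after their values were seen. Rn7s1, Rn7s2, Tusc3 and Ddit3 were not analysed here. Same-numbered libraries deviated with correlations between −0.121 and 0.0476 (AMPK) and between −0.177 and 0.148 (Lmx1b), so the numbers were not taken as pairs.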

Additional observations from a re-analysis of the deposited data

How the results depend on the processing

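Of 673 member values recomputed under alternatives, 652 kept their sign. With 3 libraries a group and 2 shallow AMPK libraries, the AMPK calls were the least settled. Unless a value shows it, the cause of a change below was not tested.

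In the AMPK comparison, 1555 genes and 2 members were called. DESeq2 gave 667 genes and 1 member, at least 10 counts in every library 825 and 1 (only 3 members and 3994 genes could be tested), removal of the length trend 901 genes (3 members: Srp9, Srp19 and Sec61g), and limma on log2 RPKM with either pseudocount 0 genes and 0 members, where 2840 and 2543 genes and 5 members had an unadjusted p under 0.05. Library size scaling alone gave 1 member. Without both shallow libraries 6 genes and 0 members were called, with 7 members at an unadjusted p under 0.05, beside 3657 of 18088 genes tested. Leaving out 1 library gave 548 (without WT 3) to 2958 genes (without WT 1) and 0 to 6 members; 0 members were called without WT 3 or AMPKα2-/- 3, and 605 genes without the latter and 921 without AMPKα2-/- 1. The log2 fold change of Srp68 turned to −0.0071 with library size scaling and to −0.0186 and −0.0193 with limma (pseudocounts 1 and 0.1), and that of Sec61a1 to 0.0086 with the length trend removed and lay between −0.29 and 0.0025 with 1 library left out (highest without WT 3).

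In Lmx1b+/- against WT, 9 members were called, and 7 to 9 under every alternative run; leaving out 1 library gave 8 or 9 members and 5911 to 8404 genes. Srp68 turned to −0.23 (library size), −0.21 and −0.22 (limma, pseudocounts 1 and 0.1), −0.0273 (length trend) and lay between −0.0346 and 0.0613 with 1 library left out (below 0 without WT 1 or Lmx1b+/- 1). In Lmx1b-/- against WT, 4 genes were called, 19 with library size scaling, 329 with all genes with any count, 35 with DESeq2, 13 with only the 6 libraries compared and 3 to 11 with 1 library left out; members called stayed at 0. Its Srp68 (−0.0014) and Ssr4 (−0.0121) turned with library size scaling, Ssr4 with limma (−0.0027 and −0.0021) and the 6 libraries (−9.6e-06), and with 1 library left out Srp68 lay between −0.0062 and 0.0748, Ssr2 between −0.031 and 0.108 and Ssr4 between −0.0275 and 0.0637 (below 0 without WT 1 or Lmx1b-/- 2). In Lmx1b-/- against Lmx1b+/-, 7 members became 4 with library size scaling and with limma, 5544 genes became 3663 with the length trend removed and 3500 to 6054 with 1 library left out (fewest without Lmx1b-/- 3, with 3602 without Lmx1b-/- 1), and members ranged from 7 to 8. Srp72 was the eighth, called without Lmx1b+/- 2, and Srp68 lay between −0.0484 and 0.0581 with 1 library left out. The share of calls that were higher with limma (pseudocount 1) was 29.9% in Lmx1b+/- against WT and 67.9% in Lmx1b-/- against Lmx1b+/-.

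The difference of small minus large subunits was 0.76 in place of 0.97 with the length trend removed in Lmx1b+/- against WT, and −0.90 with medians and −0.54 with the length trend removed in place of −0.72 in Lmx1b-/- against Lmx1b+/-.

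With the replicate number as a block, the AMPK comparison had 1350 genes and 1 member called (Srp14), Lmx1b+/- against WT 7243 genes and 8 members (Srp72 lost), Lmx1b-/- against WT 5 genes and 0 members, and Lmx1b-/- against Lmx1b+/- 4720 genes and 7 members. Adding the counts of near-identical copies to each member, a setting chosen after seeing the data, gave 3 (with Srp9), 9, 0 and 7 members.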
